A study of Drosophila melanogaster with 5 samples.

Results

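The core genes of the Polycomb and Trithorax groups were followed in larval hemolymph of Drosophila melanogaster, in animals that misexpressed the Hox gene abd-A and in their controls. The 10 genes were chosen by name, for their place in the complexes, from the 17807 genes of the deposited count table: Pc, ph-p, ph-d, Psc and Sce of Polycomb repressive complex 1 (PRC1), E(z), esc and Su(z)12 of Polycomb repressive complex 2 (PRC2), and trx and ash1 of the Trithorax group. No measured value entered the rule of choice, though earlier results of these data were known.

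Polycomb group proteins keep silent genes silent through cell division. PRC2 methylates histone H3 at lysine 27, PRC1 binds that mark, compacts chromatin and ubiquitinates histone H2A, and Trithorax group proteins oppose them by methylating other histone residues and remodelling nucleosomes. The Hox clusters are their best known targets in flies, and Polycomb genes are also known to restrain the proliferation and differentiation of blood cells.

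RNA was sequenced from 3 Cg-Gal4>UAS-abd-A libraries (abd-A) and 2 Cg-Gal4>CS libraries (control). The abd-A larvae came from homozygous Cg-Gal4 females crossed to males homozygous for the UAS-abd-A transgene, whereas in the control larvae the driver was combined with wild-type Canton-S, and the labels name no Polycomb or Trithorax allele in either group. Cg-Gal4 is active in the fat body as well as in blood cells, so abd-A was not driven in hemocytes alone. Larvae were 96 to 102 h old and hemolymph of 20 larvae was collected at a time and pooled, so each library is a pool and p-values measure the spread between pools, which may be in part technical.

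Assigned reads numbered 3848911 to 4959111 in the abd-A libraries and 1252969 and 2567624 in the control libraries, and 11624 genes with at least 10 counts in sum over the 5 libraries were tested. A gene with 3 counts would stand at 0.638 to 0.817 CPM in the abd-A libraries, where CPM is the count of a gene scaled to the size of its library, and at 1.16 to 2.06 CPM in the control libraries. The targeted gene, abd-A, was counted 620, 474 and 638 times in the abd-A libraries, against 0 and 21 times in the control libraries (log2 fold change 4.80, SE 0.66, edgeR's quasi-likelihood test, Benjamini-Hochberg adjusted p = 0.000955). The makeup of the hemolymph differed between the groups. All 9 lamellocyte markers measured were higher with abd-A (summed level 19512 to 22642 CPM in abd-A, 1253 and 1704 CPM in control), while 7 of 10 plasmatocyte markers (25097 to 30786 CPM in abd-A, 50161 and 53516 CPM in control) and all 5 crystal cell markers (575 to 873 CPM in abd-A, 9026 and 10872 CPM in control) were lower. All 6 fat body markers were lower as well (24.5 to 135.1 CPM in abd-A, 2414 and 20326 CPM in control), as were all 5 muscle markers (298.6 to 440.3 CPM in abd-A, 948.7 and 2552 CPM in control) and 2 of 4 neuron markers (65.3 to 112.5 CPM in abd-A, 179.3 and 366.6 CPM in control). The part of these differences in the results that follow was not tested.

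Of the 10 core genes, Psc alone passed the test, and it was lower with abd-A. By edgeR's quasi-likelihood test at an adjusted p under 0.05, 1 of 10 was lower, where 13.3% of all genes tested were lower, and 0 of 10 were higher, where 12.7% of all genes tested were higher (26.0% in either direction). With at least a 2-fold change also required, the counts stayed at 1 lower and 0 higher, against 12.7% lower and 11.0% higher among all genes. At an unadjusted p under 0.05 there were 2 core genes, Psc and ash1, both lower, where 40.8% of all genes tested were past that limit in either direction. DESeq2's Wald test and limma-voom each also called 1 core gene lower and 0 higher. Of all genes tested, they called 19.8% and 18.5% lower and 12.4% and 12.0% higher. The median log2 fold change of the 10 genes was -0.15, beside -0.17 over all genes tested, and the single values ran between -1.17 for Psc and 0.75 for Sce. The libraries of the groups did not overlap for 3 core genes lower with abd-A (Psc, ash1 and ph-p), where 29.3% of all genes were separated in this way, and for 1 higher with abd-A (Su(z)12), where the share was 27.3%. The count of higher genes depended on single control libraries: without control replicate 1 Su(z)12 was called higher (log2 fold change 0.70, adjusted p = 0.033), and without control replicate 2 trx was called higher (1.52, adjusted p = 0.000897), where 17.8% and 25.2% of all genes tested were called higher in these settings.

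**Figure D1:**
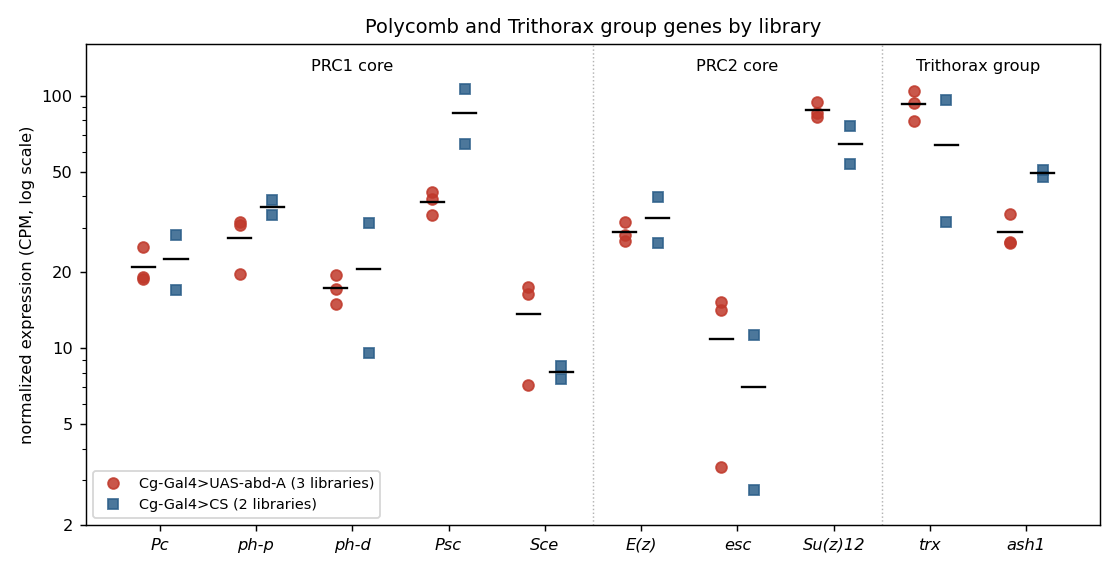
Level of each of the 10 core genes in each library, in CPM on a log axis, with abd-A libraries to the left of control libraries for every gene and bars at the group means. Psc and ash1 stood lower in all 3 abd-A libraries than in both control libraries, whereas trx and ph-d in the abd-A libraries fell between the control values of 31.6 and 95.8 CPM and of 9.62 and 31.4 CPM, except for trx in abd-A replicate 3 at 104.7 CPM.

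Psc (FBgn0005624, 2R:12965997-12980994 in dm6) encodes a RING finger protein of PRC1 that compacts chromatin. Its counts were 174, 152 and 158 in the abd-A libraries, against 94 and 273 in the control libraries, which after scaling gave 38.9, 41.4 and 33.6 CPM in abd-A and 64.6 and 105.9 CPM in control. The 3 abd-A libraries lay close together and below both controls, which differed from each other more. The means were 38.0 ± 3.97 CPM in abd-A (SD, n = 3) and 85.2 ± 29.2 CPM in control (SD, n = 2), a fold of 0.443 (log2 fold change -1.17, SE 0.30, 95% interval -1.84 to -0.50, edgeR adjusted p = 0.0190). No other annotated gene overlaps its exons on the opposite strand, but the strand on which it was counted was not tested. In a bulk sample, fewer cells of a type that expresses Psc and less Psc RNA per cell cannot be told apart. The value stayed below 0 in all 15 alternative settings and was called in 11 of them. The call was lost without abd-A replicate 1, 2 or 3 (adjusted p = 0.0874, 0.0649 and 0.0913 by edgeR), each with a value of -1.11 or lower. It was also lost with the replicate number as a block (-1.05, edgeR adjusted p = 0.187), and the value without control replicate 2 was -0.79.

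Polycomb itself, Pc (FBgn0003042, 3L:21306138-21318020), is the chromodomain subunit that reads methylated lysine 27. It stood at 18.8, 25.1 and 19.2 CPM in the abd-A libraries and at 28.2 and 17.1 CPM in the control libraries, so the abd-A values lay within the range of the controls. The log2 fold change was -0.10 (SE 0.44, adjusted p = 0.891 by edgeR), and its interval of -1.09 to 0.90 leaves out a 2-fold rise but not a 2-fold fall. The neighbouring paralogs ph-p (FBgn0004861, X:2126210-2138371) and ph-d (FBgn0004860, X:2115727-2123286) encode Polyhomeotic proteins, which polymerise through a SAM domain. They are so alike in sequence that reads may have been split or lost between them, and each value is uncertain for that reason. For ph-p there were 30.8, 19.6 and 31.7 CPM in abd-A and 38.5 and 33.7 CPM in control, with no overlap of the groups but a difference that did not pass the test (log2 fold change -0.39, SE 0.37, 95% interval -1.22 to 0.43, edgeR adjusted p = 0.447). The abd-A libraries held 17.2, 15.0 and 19.6 CPM of ph-d, between the control values of 9.62 and 31.4 CPM. Its interval was correspondingly wide, -1.52 to 0.97 around a log2 fold change of -0.27 (edgeR adjusted p = 0.743), and the estimate turned to 0.82 without control replicate 2.

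Sce (FBgn0003330, 3R:27680431-27682029), the catalytic RING subunit that ubiquitinates histone H2A, had the highest positive estimate among the 10. Its counts were low, at 32, 60 and 82 in abd-A and 11 and 22 in control. In CPM this gave 7.15, 16.3 and 17.4 in abd-A and 7.56 and 8.53 in control. A pair of abd-A libraries stood above both controls and abd-A replicate 1 stood below them. The log2 fold change of 0.75 had an SE of 0.68 and an interval of -0.78 to 2.29 (edgeR adjusted p = 0.433), so a 2-fold rise was neither called nor left out at this depth.

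Among the PRC2 genes, Su(z)12 (FBgn0020887, 3L:19918242-19923462) encodes the zinc finger subunit that holds the complex together. It reached 82.0, 85.5 and 94.7 CPM in the abd-A libraries, all above the 75.6 and 53.5 CPM of the control libraries. The difference did not pass the test with all 5 libraries (log2 fold change 0.45, SE 0.26, 95% interval -0.15 to 1.04, edgeR adjusted p = 0.236), although it did without control replicate 1. E(z) (FBgn0000629, 3L:10634575-10638130), the methyltransferase of the complex, had 28.2, 31.6 and 26.6 CPM in abd-A and 26.1 and 39.6 CPM in control. The abd-A values again lay within the range of the controls (log2 fold change -0.20, SE 0.36, edgeR adjusted p = 0.706), and the upper bound of the 95% interval was 0.60, short of a 2-fold rise. esc (FBgn0000588, 2L:11827204-11829405), the WD40 subunit that binds the methylated mark and stimulates E(z), was the most variable of the 10. It had 68, 52 and 16 counts in abd-A and 4 and 29 counts in control, or 15.2, 14.2 and 3.40 CPM against 2.75 and 11.2 CPM. Each group thus held a low and a high library, and the interval of -1.45 to 2.65 around a log2 fold change of 0.60 allowed a change in either direction (edgeR adjusted p = 0.657).

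trx (FBgn0003862, 3R:14263358-14286903) encodes the Trithorax methyltransferase of histone H3 lysine 4. Its levels were 93.2, 79.3 and 104.7 CPM in abd-A, against 31.6 and 95.8 CPM in control, and control replicate 1 alone stood apart. The log2 fold change was 0.51 (SE 0.41, 95% interval -0.40 to 1.43, edgeR adjusted p = 0.368), but the estimate was 1.52 without control replicate 2 and -0.06 without control replicate 1. ash1 (FBgn0005386, 3L:19590773-19598755), a methyltransferase of histone H3 lysine 36, gave 26.4, 26.2 and 34.0 CPM in the abd-A libraries, below the 50.8 and 47.7 CPM of the control libraries. The means of 28.9 ± 4.50 CPM in abd-A (SD, n = 3) and 49.3 ± 2.21 CPM in control (SD, n = 2) gave a fold of 0.587 (log2 fold change -0.77, SE 0.31, 95% interval -1.47 to -0.06). This difference had an unadjusted p of 0.0358 and an adjusted p of 0.0983 by edgeR, and was called in the single alternative that kept genes with at least 10 counts in every library (adjusted p = 0.0349). For 0 of the 10 genes did the interval lie wholly within a 2-fold change in both directions.

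**Figure D2:**
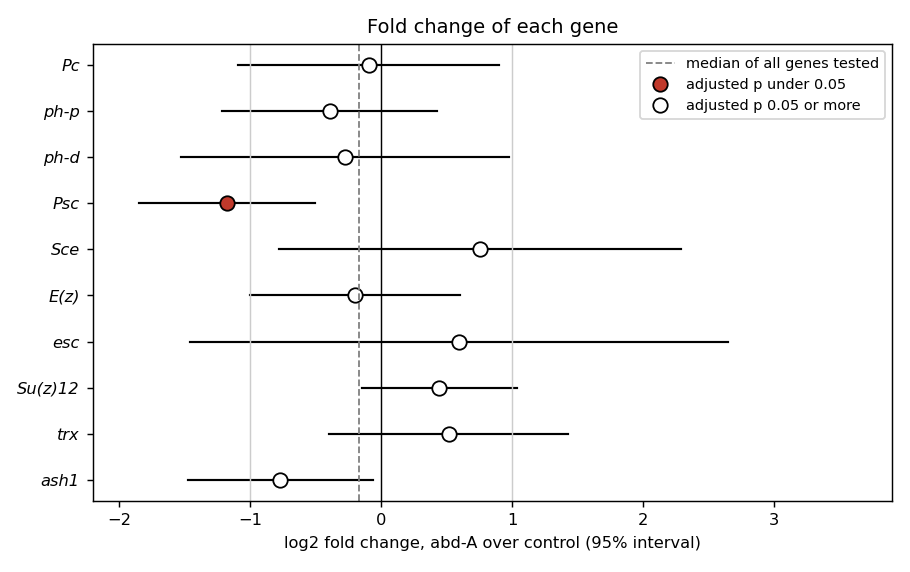
Log2 fold change of each core gene, abd-A over control, with its 95% interval, grouped by complex, and a line at the median of all genes tested (-0.17). Only the interval of Psc (-1.84 to -0.50) is that of a called gene, and no interval lies wholly between -1 and 1.

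The library kit keeps the strand of the RNA, but the strand setting used in counting is not given in the sources used here. Antisense RNA genes at least 80% covered by exons of a coding gene on the other strand had a median count density 9.40 to 13.2 times that of the coding gene in the abd-A libraries and 10.5 and 18.6 times in the control libraries. The antisense gene was denser in 93.6 to 95.5% of pairs in the abd-A libraries and in 92.6 and 93.0% in control. Whether the counts under a gene come from its own strand or from the opposite strand was not tested. Levels, ranks and shares of the 10 genes are thus of counts under each gene name, and may not measure its own RNA. Of all genes tested, 35.7% overlap a gene on the opposite strand. Of the 10 core genes, 7 have no such overlap. Pc shares 60 exon bases with CG7632 and E(z) shares 38 with CG34001. trx shares 580 exon bases, 570 of them with the 707 base antisense gene asRNA:CR46020, which was counted at 93.6, 89.0 and 91.5 CPM per kb in abd-A and 187.5 and 125.1 CPM per kb in control, where trx itself had 5.64 to 7.45 CPM per kb in abd-A and 2.25 and 6.82 CPM per kb in control. The antisense gene had a log2 fold change of -0.77 (SE 0.26, edgeR adjusted p = 0.0544), of the opposite sign to the estimate of trx. Which of the 2 genes holds the reads of trx RNA was not tested, so the direction for trx RNA is uncertain.

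Levels were compared between genes per kb of exon. In the abd-A libraries Su(z)12 was the most abundant at 21.3 CPM per kb, and the order went on with E(z) (10.8), Sce (8.85), Pc (8.53), trx (6.58), esc (6.41), Psc (6.00), ph-p (3.98), ash1 (3.79) and ph-d (2.82). Neighbours in that order were separated over all 3 libraries at 4 steps, from Su(z)12 to E(z), Pc to trx, Psc to ph-p and ash1 to ph-d. In the control libraries Su(z)12 also led, at 15.8 CPM per kb, and was followed by Psc (13.5), E(z) (12.3), Pc (9.19), ash1 (6.47), ph-p (5.24), Sce (5.22), trx (4.53), esc (4.11) and ph-d (3.35), with the ranges apart only from Pc to ash1 and from ash1 to ph-p. Psc thus held rank 7 in abd-A and rank 2 in control, and Sce rank 3 in abd-A and rank 7 in control. ph-d was last in both groups.

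The same values were set as shares within each complex, in percent of the summed CPM per kb. Psc made up 23.9, 20.1 and 16.5% of the PRC1 core in the abd-A libraries and 30.3 and 42.6% in the control libraries. Sce made up 18.1, 32.5 and 35.1% in abd-A and 14.5 and 14.1% in control, so its share was higher in every abd-A library although its level was not. The summed PRC1 level in CPM was 112.9, 117.4 and 121.5 in abd-A, below the 148.4 and 196.7 of control. Without Psc, the remaining PRC1 genes summed to 74.0, 76.0 and 87.9 CPM in abd-A and 83.8 and 90.8 CPM in control, where the groups overlapped. For PRC2 the sums were 125.4, 131.3 and 124.7 CPM in abd-A and 104.4 and 104.3 CPM in control. Within PRC2, E(z) made up 26.8, 28.9 and 28.4% in abd-A and 32.8 and 43.0% in control, and no library of abd-A reached the controls. Su(z)12 made up 50.7, 50.9 and 65.9% in abd-A and 61.8 and 37.9% in control. The sum over all 10 genes was 357.8, 354.2 and 385.0 CPM in abd-A and 335.2 and 444.5 CPM in control. These shares are given as descriptions, without a test.

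**Figure D3:**
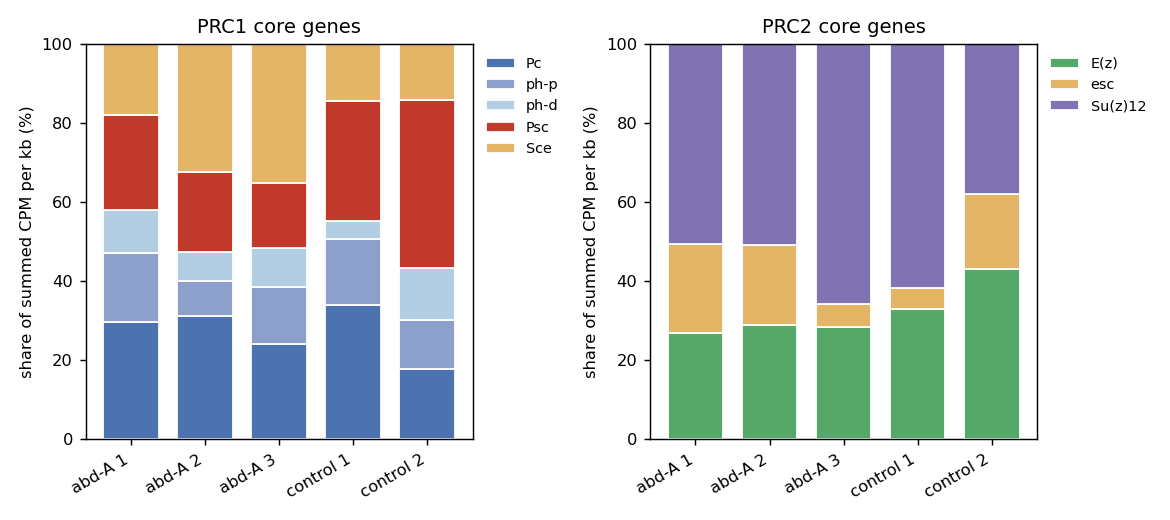
Share of each gene in the summed level per kb of its complex, in percent, for the PRC1 core and for PRC2, with the abd-A libraries to the left of the control libraries. The Psc part takes 16.5 to 23.9% in the abd-A libraries and 30.3 and 42.6% in the control libraries.

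Where a core gene has a paralog, the division of counts within the pair was compared, since paralogs can replace each other in the complex. The part of Psc in Psc plus Su(z)2, a gene of the same family beside it, was 61.4 ± 4.21% in abd-A (SD, n = 3) and 68.5 ± 7.12% in control (SD, n = 2). Su(z)2 had 23.9, 31.3 and 17.9 CPM in the abd-A libraries and 37.1 and 38.0 CPM in the control libraries, and did not pass the test (log2 fold change -0.63, SE 0.37, edgeR adjusted p = 0.240). The part of ph-p in the ph pair was 60.9 ± 3.83% in abd-A and 65.9 ± 20.0% in control. The part of esc in esc plus its paralog escl was 89.5, 88.1 and 30.2% in abd-A and 100% and 65.9% in control, where abd-A replicate 3 had 37 counts of escl and control replicate 1 had 4 counts for the pair in all. The part of pho in pho plus phol, which encode the DNA-binding proteins that recruit PRC2 and PRC1, was 63.8 ± 2.59% in abd-A and 56.5 ± 17.3% in control. An exact permutation test over libraries, two-sided, gave a raw p of 0.4 for the Psc pair and 0.8 for the other 3 pairs (adjusted p = 0.8 for each of the 4), and 3 libraries against 2 cannot give a p below 0.1 in this test.

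Another 60 genes of the 2 groups, in 7 lists by complex, were measured in the same way. By edgeR 6 of 60 were lower and 0 were higher, beside the 13.3% and 12.7% of all genes. At an unadjusted p under 0.05 there were 9 lower and 3 higher, where 40.8% of all genes were past that limit in either direction. DESeq2's Wald test called 9 lower and limma-voom 7, beside 19.8% and 18.5% of all genes. Each called 0 higher, beside 12.4% and 12.0% of all genes. Without control replicate 2, 17 of the 60 were called higher, where 25.2% of all genes tested were. Their median log2 fold change was 0.21, with 35 above and 25 below 0. Of the Brahma nucleosome remodelling complex 0 of 10 genes were called in either direction (1 higher and 1 lower at an unadjusted p under 0.05, 0 by DESeq2's Wald test and by limma-voom, median 0.35). The COMPASS-family complexes methylate histone H3 lysine 4. Of 12 genes for their subunits, 0 were called by edgeR or limma-voom and 2 lower by DESeq2's Wald test. There was 1 lower at an unadjusted p under 0.05, and the median was -0.04.

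**Figure D4:**
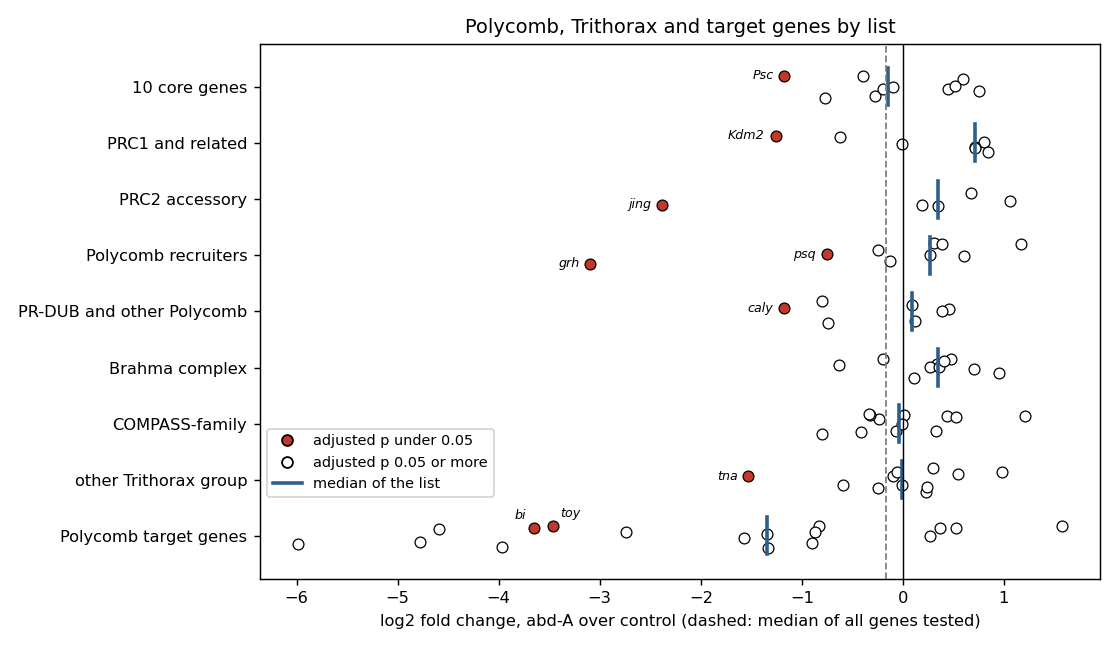
Log2 fold change, abd-A over control, of every tested gene in the lists of Polycomb and Trithorax group genes and of known Polycomb targets, with filled points for called genes and a bar at each list's median. For 5 of the target genes a whole group had at most 3 counts per library, so their fitted values are no measure of size. The called genes of the group lists all lie to the left of 0, from -3.09 for grh to -0.75 for psq, and none of the Brahma or COMPASS-family genes is filled.

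The 6 lower genes fell in 5 of the 7 lists, and the first of them was grh, a recruiter of Polycomb complexes and an epidermal transcription factor, at 12.7, 17.7 and 13.4 CPM in abd-A against 139.4 and 110.6 CPM in control (log2 fold change -3.09, SE 0.29, edgeR adjusted p = 0.000113). Of 9 recruiters 2 were lower, and the other was psq, at 148.9, 133.5 and 161.9 CPM in abd-A against 239.1 and 260.3 CPM in control (-0.75, SE 0.21, edgeR adjusted p = 0.0260). jing, the fly relative of the PRC2 accessory protein AEBP2, was the single one of 5 PRC2 accessory genes, at 18.1, 16.9 and 21.5 CPM in abd-A against 70.8 and 124.9 CPM in control (-2.38, SE 0.33, edgeR adjusted p = 0.000924). In all 3 every abd-A library lay below both controls, which the rule for naming genes of a list required. Kdm2, a histone demethylase found with PRC1 proteins, was 1 of 7 in its list (-1.26, SE 0.25, edgeR adjusted p = 0.00626). caly, the deubiquitinase that removes ubiquitin from histone H2A, was 1 of 7 (-1.18, SE 0.27, edgeR adjusted p = 0.0123), and tna, a Trithorax group SUMO ligase relative, was 1 of 11 (-1.53, SE 0.26, edgeR adjusted p = 0.00278). Of these 6, jing and psq have no gene on the opposite strand of their exons, whereas grh shares 1757 bases with such genes. The calls of psq and caly were lost when any 1 abd-A library was left out, and that of Kdm2 without abd-A replicate 1.

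Genes outside the 10 whose mutants the study crossed to the tumor-bearing larvae, Su(z)2 (above), brm and Trl, were looked at singly. brm, the ATPase of the Brahma complex, was at 162.7, 129.1 and 157.0 CPM in abd-A and 53.6 and 128.8 CPM in control, separated but not called (log2 fold change 0.70, SE 0.34, edgeR adjusted p = 0.157). It was called without control replicate 2 (1.46, edgeR adjusted p = 0.000331) and with no filter on low counts (edgeR adjusted p = 0.0475), and stood at 0.21 without control replicate 1. Trl, which encodes the GAGA factor, was at 29.5, 29.4 and 28.1 CPM in abd-A and 52.9 and 17.1 CPM in control (-0.24, SE 0.47, edgeR adjusted p = 0.725), and it shares 4865 exon bases with genes on its own strand, so its counts are uncertain. Trl was called lower without control replicate 2 (-0.89, edgeR adjusted p = 0.0322) and stood at 0.75 without control replicate 1. Caf1-55, which was not among the crossed genes, encodes a histone-binding subunit of PRC2 and of other complexes and was at 84.0, 46.3 and 92.6 CPM in abd-A and 15.8 and 53.9 CPM in control (1.06, SE 0.49, edgeR adjusted p = 0.138). Caf1-55 was called without control replicate 2 (2.21, edgeR adjusted p = 0.00187) and with no filter on low counts (edgeR adjusted p = 0.011).

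Of the 8 Hox genes, 4 could be tested and abd-A alone was called by edgeR, with 0 lower (1 lower at an unadjusted p under 0.05, and 1 lower each by DESeq2's Wald test and limma-voom). lab had no count in the 3 abd-A libraries and 9 and 8 counts in the control libraries, and was not called (edgeR adjusted p = 0.0648). Its mean control level was 6.55 times the mean level of a floor of 3 counts in the abd-A libraries. That ratio leaves out the error of the low control counts, so it is no lower bound on the fall. The interval of the log2 fold change of lab ran from -12.4 to -1.51. Of 32 other known Polycomb targets, mostly developmental transcription factors, 17 could be tested. By edgeR 0 were higher and 2 were lower, toy (5.81, 6.81 and 5.32 CPM in abd-A, 41.9 and 89.6 CPM in control, log2 fold change -3.46, SE 0.43, adjusted p = 0.000561) and bi (3.58, 0 and 2.98 CPM in abd-A, 15.8 and 40.7 CPM in control, -3.65, SE 1.01, adjusted p = 0.0271), beside the 13.3% lower among all genes tested. At an unadjusted p under 0.05, 4 were lower and 0 higher, and DESeq2's Wald test and limma-voom called 4 and 5 lower and 0 higher, where they called 19.8% and 18.5% of all genes lower. The call of bi was lost without control replicate 2, abd-A replicate 1 or abd-A replicate 3. Of the 32 genes, the number without a count was 16 in each of the 3 abd-A libraries, though not always the same genes. It was 18 in control replicate 1 and 9 in control replicate 2. These numbers depend on depth, which was lower in the control libraries. toy, bi and grh are known for roles in neurons, imaginal discs or epidermis. No list of imaginal disc or epidermis markers was measured. The sums of the fat body, muscle and neuron markers given above were lower with abd-A too, and their part in these results was not tested.

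**Figure D5:**
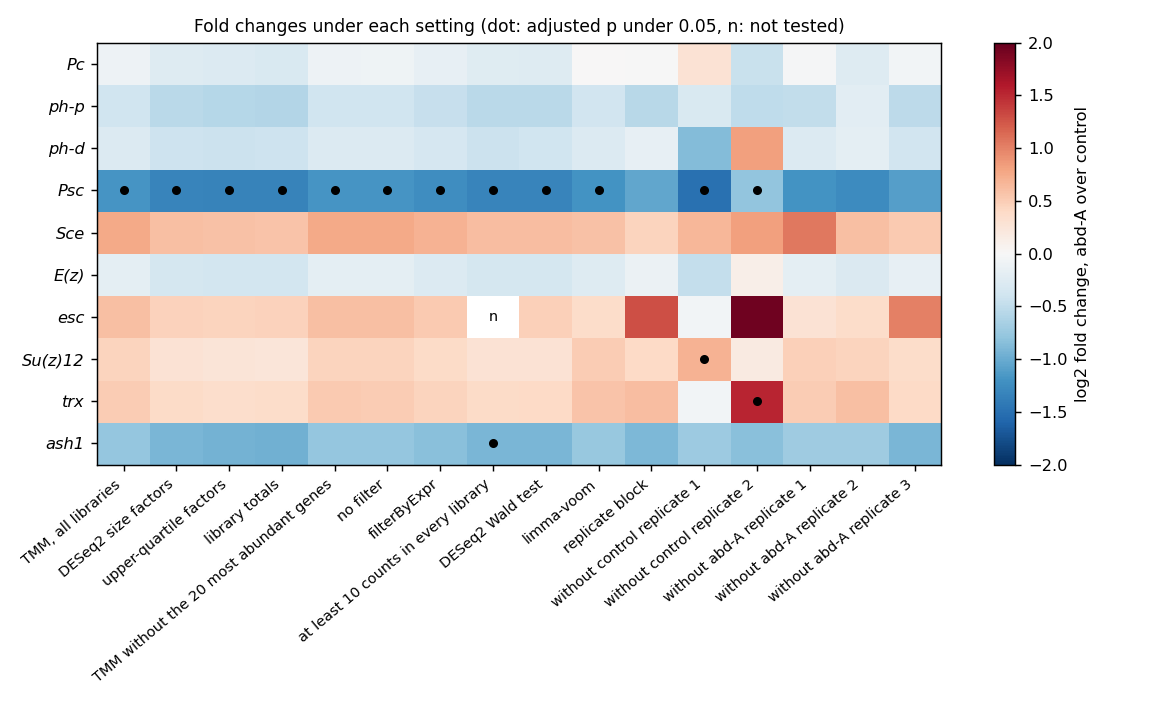
Log2 fold change of each core gene, abd-A over control, as a colour for TMM with all libraries and for each of the 15 alternatives, with a dot where the adjusted p was under 0.05 and an n where esc was not tested. Blue is lower with abd-A and red is higher. The row of Psc is blue throughout, between -1.49 and -0.79, whereas those of Pc, ph-d, E(z), esc and trx hold values on both sides of 0.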

How the data were processed

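Hemolymph RNA of 3 abd-A and 2 control pools was analysed from gene counts deposited by the authors, who made the libraries with a directional kit (NEBNext Ultra Directional). The submitters' processing notes name FastQC 0.11.7, STAR 2.5.2, HTSeq 0.11.2, DESeq2 and the dm6 build. The annotation release, strand setting and counting mode are not given in the sources used here. Counts are raw and not normalized. Groups came from the sample titles.

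Genes with at least 10 counts in sum were kept, scaled by TMM and tested with edgeR 4.0.16 (glmQLFit, glmQLFTest, limma 3.58.1, R 4.3.3), with abd-A over control and Benjamini-Hochberg adjustment over all genes tested. The threshold for a call was an adjusted p under 0.05. CPM values use TMM-scaled library sizes and kb the union of a gene's exons. Intervals are 95% and from the fit, and permutation tests used scipy 1.17.1. Floors cover counting error only. The fit was tested on simulated data.

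DESeq2 1.42.0 and limma-voom, other scalings and filters, a replicate block, each library left out, and genes with opposite-strand overlap left out were the alternatives. The libraries share replicate numbers, and the deviations of same-numbered libraries were hardly related (correlations of 0.018 and -0.0022). The deviations of the control libraries from their mean mirror each other, so this check cannot settle whether the numbers pair the libraries.

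Gene lists and the 10 core genes were chosen with earlier results of these data known. Beside the core genes, the text names the crossed genes, Caf1-55, paralogs, abd-A and, per list, up to 4 called genes in each direction whose groups do not overlap and whose mean reaches 20 counts in whichever group is higher. lab and asRNA:CR46020 were named after their values were seen. Symbols of 17710 of 17807 gene IDs were matched through the reference annotation, and nos was not analysed here. Marker genes are given as lists, except stg.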

Additional observations from a re-analysis of the deposited data

How the results depend on the processing

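Leaving out a control library leaves a single control, which is then assumed to vary like the abd-A libraries, and the lower depth of the control libraries (1252969 and 2567624 counts) limits genes such as esc and escl. Psc kept its direction in all 15 alternatives, between -1.49 and -0.79 with libraries left out, and lost its call with the replicate block (-1.05, edgeR adjusted p = 0.187) and without each abd-A library. The causes of these changes were not tested.

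Of all genes tested, 13.3% were called lower with all libraries and 16.4% with at least 10 counts in every library. The share was 7.15% with the replicate block and 6.52 to 7.62% without 1 abd-A library. The count of core genes called lower was 1, but 2 with at least 10 counts in every library, 0 with the replicate block and 0 without any 1 abd-A library. With a 2-fold change also required it was 0 with the block and 0 without any 1 abd-A library. Without control replicate 2 the log2 fold change of Psc was -0.79, short of a 2-fold fall. The count called higher ran between 0 and 1 with libraries left out, under both rules. The median of the core genes (-0.15) was -0.30 with DESeq2 size factors, -0.32 with upper-quartile factors, -0.34 with library totals, -0.34 with 10 counts in every library, -0.30 by DESeq2's Wald test, -0.27 without genes that have opposite-strand overlap, and -0.20 to 0.15 with libraries left out. The median of all genes moved likewise, to -0.32, -0.35 and -0.36 with DESeq2 size factors, upper-quartile factors and library totals, but was 0.01 with 10 counts in every library. With TMM without the 20 most abundant genes the medians stayed at -0.15 for the core genes and -0.17 for all genes. Of the 60 other genes of the groups, 36 were tested when genes with opposite-strand overlap were left out. The counts below for that setting are thus out of 36 and cannot be set directly beside those out of 60. Among the 60 other genes of the groups, 2 were called higher with no filter (1 with a 2-fold change) and 0 to 17 with libraries left out (0 to 12 with a 2-fold change). Lower calls numbered 3 with the replicate block, 2 without opposite-strand overlap and 3 to 10 with libraries left out, and with a 2-fold change 3, 1 and 3 to 5.

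Signs of estimates not called with all libraries turned for Pc by limma-voom (0.0072) and without control replicate 1 (0.29), for Trl in the same settings (0.17 and 0.75, while Trl was called lower at -0.89 without control replicate 2), for ph-d and E(z) without control replicate 2 (0.82 and 0.12), for esc and trx without control replicate 1 (-0.057 and -0.060), and for escl without control replicate 1 (-0.59) or abd-A replicate 3 (-0.71). With libraries left out, Pc ran between -0.45 and 0.29, ph-d between -0.87 and 0.82, E(z) between -0.47 and 0.12, esc between -0.06 and 1.95, trx between -0.06 and 1.52, Trl between -0.89 and 0.75 and escl between -0.71 and 6.80. The difference in share, abd-A minus control in percentage points, ran between -19.1 and 9.12 for ph-p, -30.7 and 5.85 for esc (3.36 without control replicate 1) and -4.92 and 19.5 for pho, and between -12.2 and -2.13 for Psc, whose sign held. grh, jing, tna and toy were called in all 15 alternatives. psq, caly and Kdm2 lost their calls with the replicate block, which reduced the calls over all genes to 867 higher and 831 lower, against 1481 and 1546.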

Other observations

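Markers of dividing cells and of the germline belong to no comparison above. The 8 dividing-cell markers summed to 575.3 to 615.2 CPM in the abd-A libraries and to 650.5 and 704.8 CPM in the control libraries, and by edgeR 1 of 8 was lower and 0 higher (2 lower and 2 higher at an unadjusted p under 0.05, 2 lower by DESeq2's Wald test and 1 lower by limma-voom). The called gene was stg, the Cdc25 phosphatase that opens mitosis (log2 fold change -1.42, edgeR adjusted p = 0.00235). The germline and testis markers, of which 4 could be tested, summed to 24.5 to 44.7 CPM in abd-A and to 38.0 and 104.4 CPM in control, with 0 called by edgeR, 2 lower at an unadjusted p under 0.05, and 1 lower each by DESeq2's Wald test and limma-voom.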
